A study of Mus musculus with 15 samples.

Results

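Mammary tumors from ErbB2KI mice whose Ctnnb1 alleles were both floxed were compared with tumors of the same model that carried wild-type Ctnnb1. The comparison takes 10 of the 15 tumors of the study: 5 labelled Ctnnb1 fl/fl (HOM 1 to HOM 5) and 5 labelled Ctnnb1 wt/wt (WT 1 to WT 5). Members were taken by the genotype in the labels as deposited. The 5 heterozygous tumors (HET) entered the estimate of the spread between tumors and the filter on dim genes, and are in neither of the groups compared. Both groups share the ErbB2KI background, a mouse model of Erbb2-driven breast cancer, and all tumors were flash frozen at end burden. The study's design names deletion of beta-catenin in the mammary epithelium. The sources used here give neither the promoter that drives the recombinase nor the age of the mice. Each tumor is 1 Affymetrix whole-transcript array made from total RNA of the whole tumor, so stroma and leukocytes, which the deletion does not target, contribute to every value. Whether each tumor is from a different mouse is not stated, so the spread behind each p-value is that of these tumors and no more.

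Ctnnb1 encodes beta-catenin, an armadillo-repeat protein with a role in adhesion and a role in signalling. At adherens junctions it binds the tail of E-cadherin and, through alpha-catenin, the actin cytoskeleton. In the canonical Wnt pathway it escapes a destruction complex of Axin, Apc, Gsk3 and casein kinase, enters the nucleus and acts with TCF/LEF factors on target genes such as Axin2. Its close relative plakoglobin, encoded by Jup, binds desmosomal and classical cadherins and can take the place of beta-catenin at junctions. In the mammary gland, Wnt signalling is known for its part in basal and progenitor cells and in tumor formation.

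All values below are log2 array values, so a difference of 1 is a fold of 2. They are compared between tumors for 1 gene at a time and not between genes, because probes differ in brightness. Means are given ± SD over the 5 tumors of a genotype unless stated. A gene was tested when it lay above the array's median on at least 5 of the 15 arrays, which 14243 genes did. The array medians were 5.55 to 5.73 in HOM, with HOM 5 the highest and the others at most 5.62, and 5.54 to 5.58 in WT. The epithelial genes Krt8, Krt18, Epcam and Cdh1 were above the array's upper quartile on all 10 arrays. Krt8 spanned 12.15 to 12.39 in HOM and 11.77 to 12.60 in WT. The muscle genes Myh4 and Ckm were above it on 0 arrays. Over the tested genes, HOM tumors correlated with each other at a median of 0.939 and with WT tumors at 0.938, and WT tumors correlated with each other at 0.937. By this measure HOM tumors were about as close to WT tumors as to one another. Brightness differences between genes, which all tumors share, keep it high for every pair, so it says little about the genotypes.

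Ctnnb1 itself (transcript cluster 17523257, chromosome 9) was examined first because it is the gene that the labels name. It stood at 11.58, 11.30, 11.36 and 11.15 in HOM 1 to HOM 4 and at 12.01 in the tumor labelled HOM 5, against 11.71, 12.09, 12.10 and 12.08 in WT 1 to WT 4 and 11.22 in the tumor labelled WT 5. The tumor labelled HOM 5 therefore lay among the WT levels and the tumor labelled WT 5 among the HOM levels, against their labels. HOM 5 also stood apart in gene lists described below. Of the 10 tumors it had the highest mean of fibroblast genes (10.27) and the lowest of tight junction genes (8.87). WT 5 was extreme in neither (9.37 and 9.88). Why these 2 tumors differ from their groups was not tested. For Ctnnb1 the HET tumors ran from 11.22 to 11.66, with HET 3 at the level of WT 5, so that level is not particular to HOM tumors. The means were 11.48 ± 0.33 in HOM and 11.84 ± 0.39 in WT (SD, n = 5 each), a difference of -0.36, which left HOM tumors with 78.0% of the WT level. That difference was not significant (two-sided exact permutation test, p = 0.143, where the smallest possible p is 0.00794). Without both tumors the means were 11.35 ± 0.18 in HOM and 11.99 ± 0.19 in WT (SD, n = 4 each), a difference of -0.65 or 63.9% of the WT level. Without the tumor labelled WT 5 alone the difference was -0.51 (exact permutation p = 0.0317). These tumors were singled out by this gene, so the values without them describe it and support nothing.

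Jup (cluster 17269464, chromosome 11) showed the reverse order. It stood at 12.98, 12.90, 12.97 and 12.79 in HOM 1 to HOM 4 and at 11.17 in the tumor labelled HOM 5, against 11.34, 11.31, 11.60 and 11.82 in WT 1 to WT 4 and 12.98 in the tumor labelled WT 5. Once more HOM 5 had a WT-like level and WT 5 a HOM-like level, so the groups overlapped. The HET tumors ran from 9.94 to 12.98, and HET 3 matched WT 5 at 12.98. The means were 12.56 ± 0.78 in HOM and 11.81 ± 0.69 in WT (SD, n = 5 each), a difference of 0.75 that was not significant (exact permutation p = 0.206). Without the tumor labelled HOM 5 the difference was 1.10, and without the tumor labelled WT 5 it was 1.04 (exact permutation p = 0.0476 in either case). Without both it was 1.39, and HOM 1 to HOM 4 all lay above WT 1 to WT 4. HOM 5 and WT 5 were singled out by Ctnnb1 and Jup, so the values without them describe Jup and support nothing. Every tumor keeps its deposited label in what follows, and results that rest on these 2 tumors are given with and without them.

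**Figure D1:**
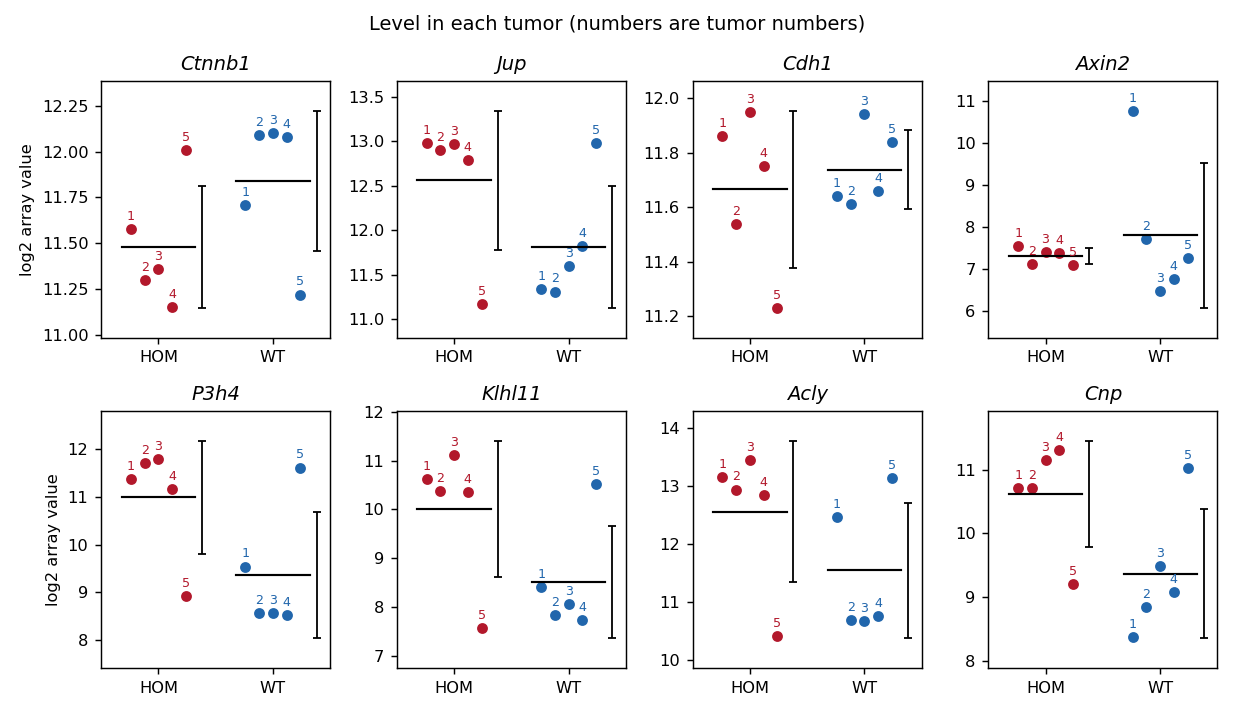
Log2 array value (vertical axes) of 8 genes in each HOM tumor (red, left) and WT tumor (blue, right), with the tumor number beside each point. Horizontal lines are means and bars are SD over 5 tumors. For Ctnnb1, HOM 5 sits at 12.01 among the WT tumors and WT 5 at 11.22 among the HOM tumors. For Jup, P3h4, Klhl11 and Cnp the same pair stands on the opposite side from the rest of its group, and for Acly WT 1 is high as well as WT 5.

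Across all genes, no gene differed between HOM and WT tumors at an adjusted p under 0.05 (limma, Benjamini-Hochberg over 14243 genes, 0 called, 0.0%). The smallest adjusted p was 1.0. At an unadjusted limma p under 0.05 there were 242 genes (1.7%), 77 with the higher HOM mean and 165 with the lower, against an average of 712 that chance would give for independent genes. Differences were small for most genes: their median was -0.012, the 5th to 95th percentiles ran from -0.37 to 0.38, and the median SE was 0.19. The mean was higher in HOM for 47.2% of the genes and lower for 52.8%. More than 1 on the log2 scale separated the means of 68 genes that were higher in HOM (0.477%) and 47 that were lower (0.33%). In 40 genes (0.281%) the 5 HOM tumors did not overlap the 5 WT tumors, 16 with HOM above (0.112%) and 24 with HOM below (0.169%).

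Without the tumors labelled HOM 5 and WT 5, 4 genes passed the same threshold, all higher in HOM (0.0281%), and 0 were lower. They were Klhl11, Klhl10, Nt5c3b and Eif1-ps3. The genes whose tumors did not overlap then numbered 433 (3.04%), 231 with HOM above and 202 with HOM below, where 4 tumors face 4 in place of 5 facing 5. For 4 facing 4, label order alone separates a gene in a share of 0.0286 of the 70 assignments, close to 3.04%. Genes at an unadjusted limma p under 0.05 numbered 513 (3.6%). HOM 5 and WT 5 were left out because of their Ctnnb1 and Jup levels. Adjusted p-values without them, here and below, therefore describe the tumors kept and support nothing. Leaving out any 1 of the 10 tumors gave 0 genes past the threshold.

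**Figure D2:**
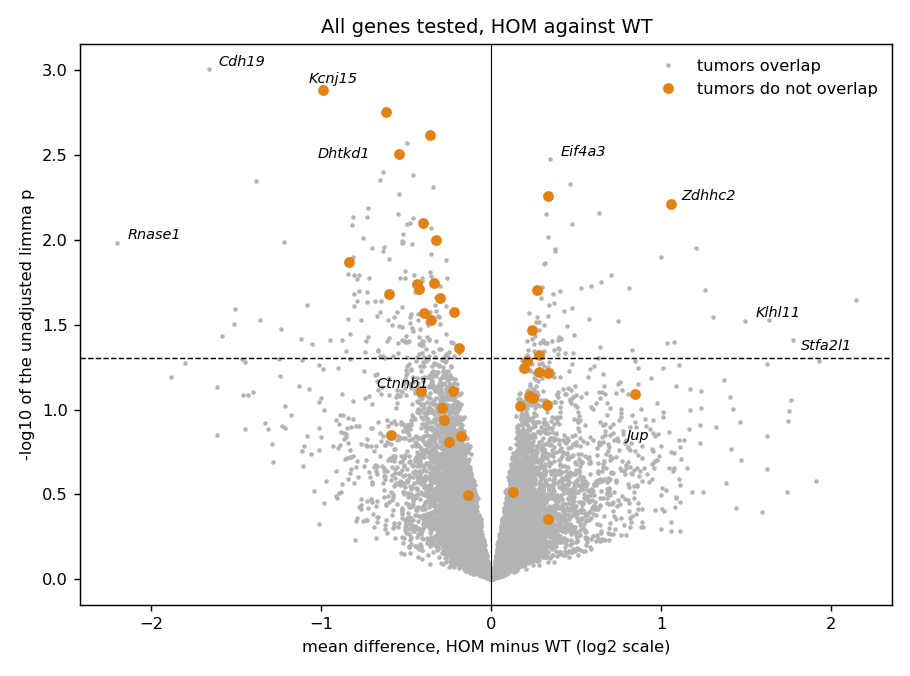
Mean difference HOM minus WT on the log2 scale (horizontal axis) against -log10 of the unadjusted limma p (vertical axis) for the 14243 genes tested. The dashed line marks an unadjusted limma p of 0.05, and orange points are the 40 genes whose HOM and WT tumors did not overlap. Cdh19 has the smallest p and no gene passes after adjustment.

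Klhl11, Klhl10 and Nt5c3b are neighbours of Jup on chromosome 11, as a RefSeq gene table (GRCm38.p6), used here only for gene order, lists them. The order of tested genes is Krt35, Krt15, Krt19, Krt9, Krt14, Krt16, Krt17, Krt42, Gast and Hap1 before Jup, and P3h4, Nt5c3b, Klhl10, Klhl11, Acly, Ttc25, Cnp, Dnajc7, Zfp385c and Dhx58 after it. The promoter windows of Jup and of the 3 neighbours that passed are shown because these 3 neighbours are among the 4 genes called without the tumors labelled HOM 5 and WT 5. Over all 10 tumors none of them was called. Each is the 250 bases before a start listed for the gene in RefSeq (GRCm38.p6), 5' to 3' on the gene's own strand. Jup is chr11:100397791-100398040 (minus strand), Nt5c3b is chr11:100441809-100442058 (minus), Klhl10 is chr11:100441674-100441923 (plus) and Klhl11 is chr11:100472783-100473032 (minus). Nt5c3b is shown with 1 of its 2 listed starts. Capitals mark the 115 bases that the Nt5c3b and Klhl10 windows share on opposite strands.
Jup: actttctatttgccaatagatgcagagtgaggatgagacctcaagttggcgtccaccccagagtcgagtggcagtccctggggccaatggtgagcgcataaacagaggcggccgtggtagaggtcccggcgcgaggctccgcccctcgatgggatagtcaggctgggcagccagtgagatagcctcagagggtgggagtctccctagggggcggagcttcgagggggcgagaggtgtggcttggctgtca
Nt5c3b: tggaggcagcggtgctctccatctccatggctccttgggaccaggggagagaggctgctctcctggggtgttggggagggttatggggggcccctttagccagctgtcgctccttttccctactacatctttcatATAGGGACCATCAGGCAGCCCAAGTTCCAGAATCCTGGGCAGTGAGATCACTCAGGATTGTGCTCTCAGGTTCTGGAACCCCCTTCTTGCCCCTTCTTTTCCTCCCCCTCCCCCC
Klhl10: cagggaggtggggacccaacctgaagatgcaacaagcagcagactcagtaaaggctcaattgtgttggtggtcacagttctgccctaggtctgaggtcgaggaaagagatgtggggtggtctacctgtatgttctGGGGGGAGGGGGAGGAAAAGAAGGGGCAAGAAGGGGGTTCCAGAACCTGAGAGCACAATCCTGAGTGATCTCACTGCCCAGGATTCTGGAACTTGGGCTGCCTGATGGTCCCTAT
Klhl11: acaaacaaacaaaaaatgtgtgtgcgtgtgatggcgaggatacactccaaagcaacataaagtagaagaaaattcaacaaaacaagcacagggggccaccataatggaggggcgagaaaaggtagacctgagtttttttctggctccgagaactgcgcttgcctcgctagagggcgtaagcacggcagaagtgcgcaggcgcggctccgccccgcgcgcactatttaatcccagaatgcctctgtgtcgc

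The letters CTTTGA, the core bound by TCF/LEF factors, were searched on both strands in these windows and in those of Ctnnb1, Acly, Cnp, Axin2 and Kcnj15. The 11 windows of these 9 genes held it in 0 cases, against 13.8% of all 32851 promoter windows of this length. That says only that these letters are not in these windows. P3h4 and Cdh19 have no entry.

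Of the 20 neighbours of Jup, 18 had the higher HOM mean and 2 the lower, with a median difference of 0.99 against -0.012 over all genes. None passed the threshold (limma), 4 had an unadjusted p under 0.05, all higher in HOM (0.541% of all genes), and 0 were without overlap. Without the tumors labelled HOM 5 and WT 5, the split was again 18 and 2 (51.9% and 48.1% of all genes), with a median of 1.81, 10 had an unadjusted p under 0.05, all higher (1.64% of all genes), and in 9 all HOM tumors lay above all WT tumors (1.62% of all genes did so). Those 9 were Krt14, Krt17, Hap1, P3h4, Nt5c3b, Klhl10, Klhl11, Acly and Cnp. The 2 tumors left out were chosen for Ctnnb1 and Jup, so genes that vary with Jup were bound to separate better without them.

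Klhl11, a BTB-kelch adaptor of a ubiquitin ligase, stood at 10.62, 10.37, 11.12 and 10.36 in HOM 1 to HOM 4 and 7.57 in the tumor labelled HOM 5, against 8.42, 7.83, 8.07 and 7.73 in WT 1 to WT 4 and 10.52 in the tumor labelled WT 5. The lone HOM 5 lay below every WT tumor and WT 5 lay within the HOM range. The 5 HET tumors ran from 7.71 to 8.43, at the level of WT 1 to WT 4. They were also near the level of WT 1 to WT 4 for Klhl10 (5.24 to 5.48), Nt5c3b (7.99 to 9.01) and Acly (10.52 to 11.38). The same held for Cnp (8.12 to 9.53) and Dnajc7 (7.99 to 8.63). For some other genes of this stretch they reached higher, up to 10.98 for P3h4, 12.98 for Jup and 13.43 for Krt14. The difference for Klhl11 was 1.49 with all tumors (limma, unadjusted p = 0.0299, adjusted p = 1.0), and 2.61 or 6.08-fold without the 2 tumors (adjusted p = 0.000565).

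P3h4, which takes part in collagen modification in the endoplasmic reticulum, stood at 11.37, 11.72, 11.80 and 11.16 in HOM 1 to HOM 4 and 8.93 in HOM 5, against 9.54, 8.57, 8.56 and 8.53 in WT 1 to WT 4 and 11.62 in WT 5. It divided the tumors in the same way. Its difference was 1.63 with all tumors and 2.71 without HOM 5 and WT 5 (limma, adjusted p = 0.0743). Nt5c3b, a nucleotidase, stood at 10.65, 10.75, 10.84, 10.48 and 8.56 in HOM 1 to HOM 5, against 9.46, 8.85, 8.47, 8.46 and 10.66 in WT 1 to WT 5. The means differed by 1.08 over all tumors and by 1.87 without the 2 (limma, adjusted p = 0.0489).

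Klhl10, a kelch protein known from the testis, was dim, at 6.52, 6.51, 6.42, 6.10 and 5.27 in HOM 1 to HOM 5, against 5.57, 5.45, 5.33, 5.45 and 6.60 in WT 1 to WT 5. Its lower values are at or below the array medians. The gene models of Klhl10 and Nt5c3b are listed as overlapping by 681 bases on opposite strands. The starts behind the windows shown above point away from each other and give no such overlap, so the listed models and these starts differ. The difference without the 2 tumors was 0.94 (limma, adjusted p = 0.0155). Eif1-ps3 is annotated as a pseudogene of the translation factor gene Eif1, which itself lies between Krt42 and Gast in this stretch. Eif1-ps3 stood at 11.16, 11.22, 11.06, 10.98 and 9.80 in HOM 1 to HOM 5, against 10.14, 9.59, 9.81, 9.54 and 11.10 in WT 1 to WT 5. The cluster of Eif1-ps3 is annotated to chromosome 2. No cluster was named for Eif1 alone, and whether the Eif1-ps3 cluster also measures Eif1 was not tested. The Eif1-ps3 difference without the 2 tumors was 1.34 (limma, adjusted p = 0.011).

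Acly, the ATP citrate lyase that makes cytosolic acetyl-CoA for lipid synthesis, stood at 13.15, 12.94, 13.44, 12.85 and 10.42 in HOM 1 to HOM 5, against 12.46, 10.69, 10.68, 10.77 and 13.14 in WT 1 to WT 5. Here WT 1 was also high, between HOM 5 and HOM 4. Cnp, a phosphodiesterase known from myelin, stood at 10.72, 10.71, 11.16, 11.31 and 9.21 in HOM 1 to HOM 5, against 8.38, 8.85, 9.49, 9.08 and 11.03 in WT 1 to WT 5. The differences over all tumors were 1.01 for Acly and 1.26 for Cnp, and 1.94 and 2.03 without the 2 tumors. The cilia gene Ttc25, the co-chaperone gene Dnajc7 and the huntingtin partner Hap1 had differences of 0.96, 0.66 and 1.14. Beyond them the pattern ended: Zfp385c was high in HOM 3 alone at 7.85, and the RNA sensor gene Dhx58 was highest in HOM 4 at 11.28 and WT 3 at 10.31.

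On the other side of Jup lie the type I keratins. Krt19, found in luminal cells, differed by 1.74, the basal keratin Krt14 by 1.62, the stress keratin Krt16 by 1.62 and Krt17 by 1.11. Krt14 stood at 12.81, 12.55, 11.86, 12.53 and 11.09 in HOM 1 to HOM 5, against 9.24, 10.18, 8.79, 11.85 and 12.66 in WT 1 to WT 5. Its WT tumors spanned nearly the whole range of the HOM tumors and more. The hair keratin Krt35 and the footpad keratin Krt9 differed by -0.20 and 0.11.

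**Figure D3:**
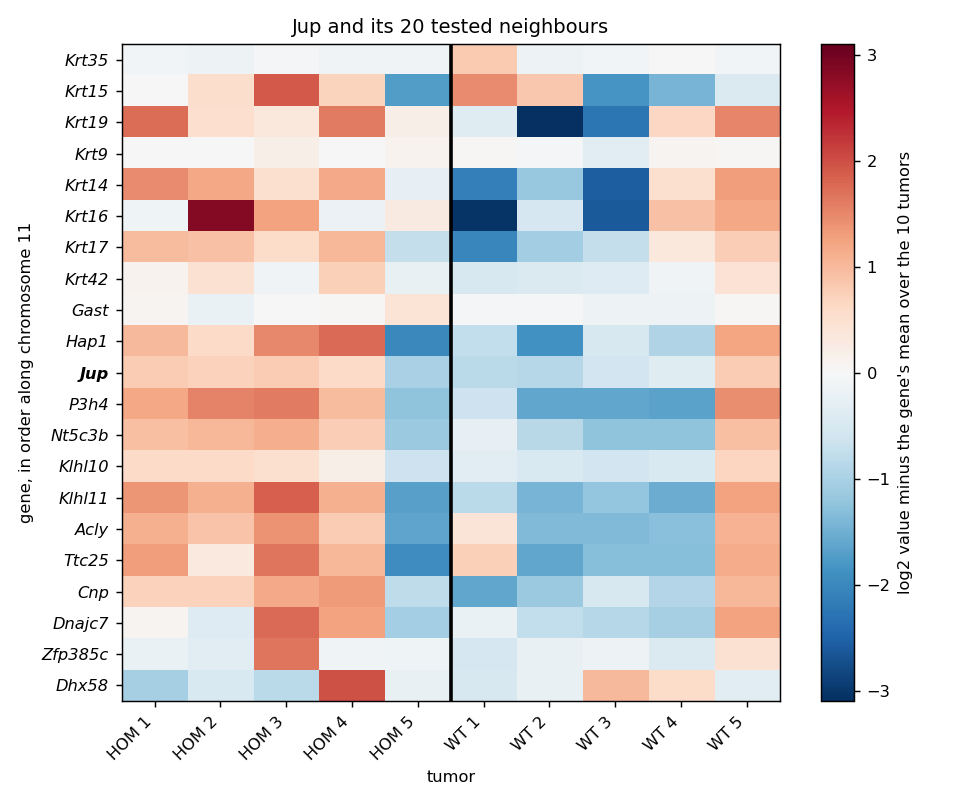
Jup and its 20 tested neighbours in their order along chromosome 11 (rows) in the HOM tumors and, right of the line, the WT tumors (columns). Colour is the log2 value minus the gene's mean over the 10 tumors. From Hap1 to Cnp the columns HOM 1 to HOM 4 and WT 5 are red and HOM 5 is blue, as are most of WT 1 to WT 4.

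The neighbours of Ctnnb1 on chromosome 9 went the other way to a lesser degree. Of 20, 16 had the lower HOM mean and 4 the higher, with a median difference of -0.15. Those with an unadjusted limma p under 0.05 were 4, all lower in HOM (1.16% of all genes) and all in the row of genes after Ctnnb1. They were the peptide receptor gene Vipr1 (-0.95), the vesicle traffic gene Sec22c (-0.51), the SS18-related gene Ss18l2 (-0.69) and Nktr (-0.40), and none passed after adjustment. Ss18l2 stood at 8.17, 8.46, 8.35, 7.38 and 8.67 in HOM 1 to HOM 5, against 8.79, 9.37, 9.21, 8.99 and 8.11 in WT 1 to WT 5, so that again HOM 5 was the highest HOM tumor and WT 5 the lowest WT tumor. Without the 2 tumors the median was -0.29, and 2 neighbours lay below without overlap (1.42% of all genes).

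Erbb2, the gene whose activation drives these tumors, stood at 10.52, 12.36, 10.56, 12.83 and 11.39 in HOM 1 to HOM 5, against 9.63, 11.00, 11.60, 11.47 and 11.85 in WT 1 to WT 5. HOM 2 and HOM 4 were the highest and WT 1 the lowest, and the groups overlapped (difference 0.42, limma, adjusted p = 1.0). Among its 20 neighbours on chromosome 11, 7 had the higher HOM mean and 13 the lower, with 0 at an unadjusted p under 0.05. Single tumors stood far apart there. Med1, a subunit of the Mediator complex, stood at 13.33 in HOM 5, against 9.76 to 10.67 in the other HOM tumors, and at 13.29 in WT 3, against 10.05 to 10.61 in the other WT tumors. Pgap3, next to Erbb2, was 11.37 to 12.37 in HOM 1, HOM 3 and HOM 5 and 12.45 to 12.57 in WT 2, WT 3 and WT 4, against 8.19 and 9.08 in HOM 2 and HOM 4 and 8.77 and 8.74 in WT 1 and WT 5. High and low tumors of these genes were present in both genotypes.

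The genes with the smallest p included the cadherin gene Cdh19, which is known from Schwann cells and other neural crest cells. Cdh19 stood at 6.75, 6.34, 6.93, 5.30 and 4.91 in HOM 1 to HOM 5, against 7.77, 6.78, 8.32, 8.15 and 7.48 in WT 1 to WT 5. HOM 3 lay above WT 2, and otherwise the groups were apart. The values of HOM 4 and HOM 5 lie below the medians of their arrays. The difference was -1.66 with an SE of 0.40 (limma, unadjusted p = 0.000993, adjusted p = 1.0), and -1.43 without the tumors labelled HOM 5 and WT 5. Kcnj15, an inward rectifier potassium channel, stood at 7.05, 6.78, 6.57, 6.42 and 6.60 in HOM 1 to HOM 5, against 7.79, 7.63, 7.36, 7.67 and 7.93 in WT 1 to WT 5. All HOM tumors lay below all WT tumors, HOM 5 and WT 5 included, with a difference of -0.99 (SE 0.25, unadjusted p = 0.00131, adjusted p = 1.0).

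Next came 2 unnamed gene models and then Stim1, the calcium sensor of the endoplasmic reticulum, with a mean of 7.84 ± 0.16 in HOM and 8.34 ± 0.20 in WT (SD, n = 5 each). Dhtkd1, a mitochondrial enzyme of lysine breakdown, averaged 6.41 ± 0.25 in HOM and 6.96 ± 0.17 in WT, without overlap. Eif4a3, a core subunit of the exon junction complex, was the only one of the 10 with the higher HOM mean, 7.15 ± 0.14 in HOM and 6.80 ± 0.15 in WT. The lipid transporter gene Abca2 (-0.63), the tRNA splicing enzyme gene Trpt1 (-0.46) and the leucine breakdown gene Ivd (-0.65) completed the 10. In Stim1, Abca2, Trpt1 and Ivd the overlap came from WT 5, which was the lowest WT tumor in each.

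Among the genes with every HOM tumor above every WT tumor, Zdhhc2, a palmitoyltransferase, differed most. It stood at 7.54, 8.06, 7.39, 7.47 and 7.52 in HOM 1 to HOM 5, against 5.66, 7.11, 6.56, 6.02 and 7.36 in WT 1 to WT 5, a difference of 1.06 (SE 0.33, limma, unadjusted p = 0.00614, adjusted p = 1.0). HOM 3 and WT 5 were the closest pair. Lep, the fat cell hormone leptin, stood at 5.47, 6.05, 5.43, 8.06 and 5.52 in HOM 1 to HOM 5, against 5.30, 5.25, 5.25, 5.32 and 5.16 in WT 1 to WT 5. Its mean difference of 0.85 rests on HOM 4, and the other values lie near the array medians. Birc3, an inhibitor of apoptosis, averaged 8.25 ± 0.10 in HOM and 7.91 ± 0.20 in WT, and the transcriptional cofactor gene Sertad1 averaged 8.19 ± 0.09 in HOM and 7.91 ± 0.09 in WT (SD, n = 5 each). Fbxo27, Inmt, Atp8b3, Rai2, Npff and Gip had differences of 0.24 to 0.34 at levels of 5.23 to 7.32.

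Among the genes with every HOM tumor below every WT tumor, the 10 with a gene name and the largest differences included Kcnj15 and Dhtkd1, given above. Pfkm, a phosphofructokinase of glycolysis, stood at 8.78, 8.33, 8.78, 8.52 and 8.56 in HOM 1 to HOM 5, against 9.26, 9.31, 8.92, 9.40 and 9.01 in WT 1 to WT 5 (difference -0.59, limma, unadjusted p = 0.142). Dhcr7, which makes the last step to cholesterol, averaged 8.84 ± 0.13 in HOM and 9.26 ± 0.33 in WT. Slc7a4, of the cationic amino acid transporter family, averaged 5.74 ± 0.23 in HOM and 6.58 ± 0.70 in WT, where WT 1 stood at 7.82 and the other WT tumors at 6.11 to 6.47. The actin nucleator gene Diaph2 (-0.60), the mitochondrial topoisomerase gene Top1mt (-0.44), the Toll-like receptor kinase gene Irak1 (-0.42), the diacylglycerol kinase gene Dgke (-0.40) and the complement gene C8g (-0.40) were the others of these 10. None passed after adjustment.

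**Figure D4:**
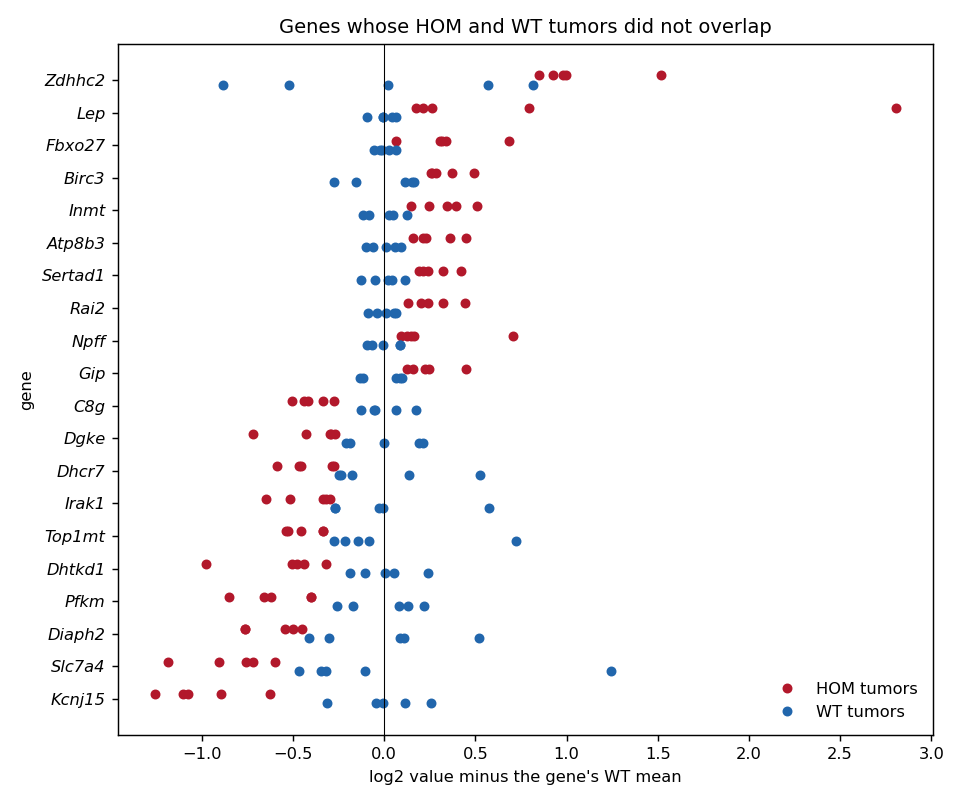
Log2 value minus the gene's WT mean (horizontal axis) for 20 genes whose 5 HOM tumors (red) did not overlap the 5 WT tumors (blue), each gene a row with 1 point per tumor. Kcnj15 and Zdhhc2 show the largest mean differences in either direction, and Lep shows 1 HOM tumor far from the others.

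Rnase1 had the largest difference of means on the lower side. The gene, which encodes a secreted ribonuclease known from vessel walls, stood at 4.12, 4.81, 3.89, 4.36 and 5.57 in HOM 1 to HOM 5, against 7.72, 5.77, 7.69, 8.60 and 3.96 in WT 1 to WT 5. The tumor labelled WT 5 lay within the HOM range and the tumor labelled HOM 5 was the highest HOM value. Every HOM value and that of WT 5 lie below the medians of their arrays, so the difference is measured from dim values. The difference was -2.20 (limma, unadjusted p = 0.0104, adjusted p = 1.0) and -3.15 without these 2 tumors. The guidance factor gene Sema3d (-1.89), the kininogen gene Kng2 (-1.80), Cdh19 (-1.66, given above) and the fibrinogen gene Fgg (-1.62) followed. Kng2 stood at 6.74, 6.79, 6.26, 7.74 and 9.75 in HOM 1 to HOM 5, against 7.34, 9.60, 10.80, 9.82 and 8.72 in WT 1 to WT 5.

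On the higher side, the stefin gene Stfa2l1, a protease inhibitor of neutrophils, averaged 7.10 ± 1.93 in HOM and 5.18 ± 1.11 in WT. The casein gene Csn1s2a averaged 11.01 ± 2.33 in HOM and 9.10 ± 3.20 in WT. The coagulation inhibitor gene Tfpi2 averaged 10.20 ± 1.17 in HOM and 8.42 ± 1.55 in WT, and the water channel gene Aqp3 averaged 8.13 ± 1.77 in HOM and 6.36 ± 0.60 in WT (SD, n = 5 each). Stfa1 stood at 6.02, 11.05, 8.68, 5.31 and 7.78 in HOM 1 to HOM 5, against 5.55 to 6.45 in the WT tumors. HOM 2, HOM 3 and HOM 5 lay above all WT tumors, HOM 1 lay within their range and HOM 4 below it.

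Gene groups are described by counts of members with the higher or lower HOM mean, to be read against 47.2% and 52.8% over all genes, and by the median difference, against -0.012. No member of any list passed the threshold (limma, 0 called). Of adherens junction genes, 17 were tested, 4 with the higher HOM mean and 13 with the lower, with a median of -0.07. The differences ran from -0.41 for Cdh3, which encodes P-cadherin, to 0.75 for Jup, with Ctnnb1 (-0.36) and the armadillo protein gene Pkp4 (-0.29) next to Cdh3. Cdh1, which encodes E-cadherin, stood at 11.86, 11.54, 11.95, 11.75 and 11.23 in HOM 1 to HOM 5, against 11.64, 11.61, 11.94, 11.66 and 11.84 in WT 1 to WT 5. Its difference of -0.07 turned to 0.059 without the tumors labelled HOM 5 and WT 5, and to 0.035 without HOM 5 alone. Of 11 desmosome genes, 8 were higher, with a median of 0.17, among them the plaque protein gene Pkp1 (0.74) and the desmosomal cadherin gene Dsc3 (0.72), while Pkp2 differed by -0.34. Without WT 1 the split was 5 higher and 6 lower.

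Tight junction genes divided into 4 higher and 10 lower of 14 (median -0.04), but into 13 higher and 1 lower without the tumors labelled HOM 5 and WT 5, and 9 higher and 5 lower without WT 1. HOM 5 had the lowest list mean, 8.87, against 9.65 to 10.16 in the other HOM tumors and 9.31 to 9.97 in the WT tumors. The claudin gene Cldn8 differed by 0.52, Cldn1 by 0.25 and cingulin, Cgn, by -0.17. Cldn1 changed sign under array weights (-0.061) and without WT 1 (-0.084), and Cgn without the same 2 tumors (0.082).

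Wnt target genes were lower on balance, with 16 of 20 tested below in HOM and a median of -0.33. Only Ascl2, a stem cell transcription factor (-0.58), and Znrf3, a ubiquitin ligase that removes Wnt receptors (-0.83), had an unadjusted limma p under 0.05, 2 of 20, against 1.16% of all genes for the lower direction. Nkd1, an inhibitor of the pathway, stood at 6.46, 5.99, 6.11, 6.31 and 7.00 in HOM 1 to HOM 5, against 10.72, 8.36, 6.07, 7.63 and 6.32 in WT 1 to WT 5. Axin2, the target gene used most as a reporter, stood at 7.55, 7.12, 7.41, 7.38 and 7.11 in HOM 1 to HOM 5, against 10.78, 7.73, 6.48, 6.76 and 7.28 in WT 1 to WT 5. In both genes WT 1 was far above all other tumors. For Nkd1, WT 2 and WT 4 also lay above every HOM tumor, and WT 3 and WT 5 within the HOM range, with a difference of -1.45 over all tumors and -0.72 without WT 1. For Axin2, WT 2 lay above every HOM tumor and WT 3 and WT 4 below. Without WT 1, Axin2 was 0.25 higher in HOM, and 7 of the 20 targets were higher and 13 lower, with a median of -0.20. Averaged per tumor, the list mean was 8.04 to 8.57 in HOM and 8.18 to 9.13 in WT.

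Wnt ligands and receptors split evenly, 17 higher and 15 lower of 32 (median 0.03). Lgr4, a receptor for R-spondins, stood at 10.29, 10.31, 10.49, 10.21 and 10.83 in HOM 1 to HOM 5, against 11.58, 11.47, 11.04, 11.15 and 10.66 in WT 1 to WT 5. It was lower in HOM by 0.76 on average (limma, unadjusted p = 0.00978, adjusted p = 1.0), with HOM 5 the highest HOM tumor and WT 5 the lowest WT tumor. Its relative Lgr6 differed by -0.87, and Ryk, a Wnt receptor with a kinase-like domain, by 0.22. Destruction complex and TCF genes differed little, 9 higher and 10 lower of 19 with differences between -0.22 and 0.15, Gsk3b (-0.15), Fbxw11 (-0.18) and the nuclear cofactor gene Pygo2 (0.15) among them.

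ErbB receptors and ligands were higher in 9 of 11 members (median 0.31), in 7 of 11 without WT 1 (median 0.05). Hbegf, a ligand of the EGF family, was 9.88 to 10.47 in HOM, against 6.75 in WT 1 and 9.53 to 10.30 in the other WT tumors. YAP and TAZ targets split 8 to 5 (median 0.11), with the ectonucleotidase gene Nt5e at 0.76, the matricellular gene Ccn1 at 0.45 and the LIM protein gene Ajuba at 0.34. The Notch pathway split 10 to 4 (median 0.14), with the receptor gene Notch1 at -0.40, its target Hey1 at 0.70 and Lfng, which modifies Notch, at 0.23. TGF-beta genes split 8 to 6 (median 0.03), with Smad4 at 0.27, Smad3 at -0.23 and Tgfbi at 0.49. Without WT 1 these 3 lists had 5, 6 and 5 members higher, and 8, 8 and 9 lower. Of 13 p53 targets, 11 were lower (median -0.19).

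The HOM and WT tumors overlapped in the mean level of every epithelial list. Luminal genes split 8 to 7 (median 0.02) and 7 to 8 without WT 1, luminal progenitor genes 7 to 3 (median 0.17) and hormone-sensing genes 5 to 1 (median 0.14). Tnfrsf11a, the receptor RANK, had the lower HOM mean, 8.32 ± 0.50 in HOM and 9.17 ± 0.61 in WT (SD, n = 5 each, limma, unadjusted p = 0.0455), and Cd14 the higher, 11.49 ± 0.47 in HOM and 10.63 ± 1.01 in WT. The pioneer factor gene Foxa1 differed by 0.84 and the luminal regulator Gata3 by 0.49. Basal and myoepithelial genes were higher in 10 of 13 (median 0.40) and in 9 of 13 without WT 1 (median 0.12), led by Krt14 and Krt17 from the stretch beside Jup, with the integrin gene Itga6 at -0.26. Their tumor means were 9.17 to 9.63 in HOM, and 8.08 in WT 1 and 8.67 in WT 3 among 8.08 to 9.58 in WT.

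Milk genes and squamous genes differed widely between tumors of a genotype. Milk genes were higher in 8 of 11 (median 0.76), and in 11 of 11 without WT 1. The casein gene Csn2 stood at 13.43, 13.34, 12.64, 13.44 and 10.93 in HOM 1 to HOM 5, against 13.65, 7.21, 12.21, 10.87 and 12.93 in WT 1 to WT 5. Glycam1, a milk mucin, was 6.12 to 12.32 in HOM, against 13.49 in WT 1 and 5.32 to 7.16 in the other WT tumors. Squamous differentiation genes were higher in 12 of 13 (median 0.48), where HOM 2 and HOM 3 had list means of 10.33 and 9.39, against 6.73 to 7.45 in the other HOM tumors and 6.71 to 8.57 in WT. Krt1 and the cornified envelope gene Lor differed by 0.56 and 0.17.

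Because the RNA came from whole tumors, fewer cells of a type and less RNA per cell cannot be told apart in the lists that follow. Fibroblast genes were higher in 16 of 16 members (median 0.31). The list means were 8.18 to 10.27 in HOM, against 7.22 in WT 1 and 9.27 to 9.53 in the other WT tumors. HOM 5 had the highest mean of the 10 tumors here and for the mesenchymal (9.89), endothelial (9.34) and pericyte (9.34) lists below. Without WT 1 only 4 fibroblast genes were higher and 12 lower (median -0.09). Dpt, dermatopontin of the matrix, differed by 0.76, the fibroblast protease gene Fap by 0.59 and the receptor gene Pdgfrb by 0.41. Mesenchymal (EMT) genes divided alike, 12 of 14 higher and 6 of 14 without WT 1, with Snai2 at 0.82, the matrix gene Tnc at 0.69 and Twist1 at -0.44. Endothelial genes were higher in 13 of 14 by at most 0.31 (Emcn 0.30, Cldn5 0.31, Vwf 0.17), in 7 of 14 without WT 1, and in 4 of 14 without HOM 5 and WT 5. Pericyte genes were higher in 7 of 7 (median 0.14) and in 4 of 7 without WT 1.

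Adipocyte genes were higher in 11 of 12 (median 0.76), and in 12 of 12 without WT 1. Adipoq, the hormone adiponectin, stood at 5.68, 7.17, 5.67, 7.86 and 5.64 in HOM 1 to HOM 5, against 5.28 to 5.88 in WT. HOM 4 and HOM 2 were above all WT tumors and the other HOM tumors were within the WT range. Retn, resistin, averaged 6.93 ± 0.96 in HOM and 6.05 ± 0.23 in WT. The list means were 9.01 and 7.80 in HOM 4 and HOM 2, 6.18 to 7.10 in the other HOM tumors, and 6.60 to 6.88 in WT.

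Schwann cell and nerve genes were lower in 7 of 9 (median -0.03), with Cdh19 at the low end, but in only 4 of 9 without WT 1 and in 5 of 9 without HOM 5 and WT 5. The glial calcium-binding gene S100b stood at 6.69, 4.96, 5.55, 5.40 and 8.35 in HOM 1 to HOM 5, against 5.73, 8.59, 8.52, 6.95 and 8.49 in WT 1 to WT 5. The neurotrophin receptor gene Ngfr differed by 0.32. Over the whole list, differences ran from -1.66 to 0.32. Skeletal muscle genes split 3 to 5 (median -0.02), with Atp2a1, Ckm and Tnnt3 at -0.26, -0.18 and -0.16.

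Among leukocyte lists, neutrophil genes were higher in 13 of 14 (median 0.83) and in 13 of 14 without WT 1 (median 0.56). Retnlg stood at 6.41, 8.03, 5.70, 6.07 and 8.80 in HOM 1 to HOM 5, against 4.19, 6.55, 4.93, 5.16 and 6.07 in WT 1 to WT 5. The cytokine gene Il1b averaged 9.63 ± 0.97 in HOM and 8.52 ± 1.45 in WT (SD, n = 5 each). HOM 2 and HOM 5 had neutrophil list means of 8.94 and 9.28, against 7.26 to 7.64 in the other HOM tumors and 6.54 to 7.93 in WT. Chemokine genes were higher in 17 of 20 (median 0.43), and in 14 of 20 without WT 1 (median 0.14). The neutrophil attractant gene Cxcl2 differed by 1.24, Ccl3 by 0.78 and Ccl9 by 0.44.

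Pan-leukocyte genes were higher in 9 of 10 and macrophage genes in 12 of 15 (medians 0.16 and 0.22), and without WT 1 in 4 of 10 and 5 of 15. Cd53, Itgb2 and Coro1a differed by 0.49, 0.36 and 0.28. Lyz2, a lysozyme of myeloid cells, differed by 0.59 and Mertk, a receptor for dying cells, by -0.57. T and NK cell genes were lower in 8 of 10 (median -0.31), where HOM 4 and WT 3 stood highest, at 7.75 and 7.92. With 1 tumor left out, the difference of the T and NK list means ran from -0.53 to 0.064. Nkg7, Cd8a and Cd4 differed by -0.47, -0.33 and -0.34. B and plasma cell genes were lower in 7 of 9 (median -0.13), with the antibody joining chain gene Jchain at -1.02, the coactivator gene Pou2af1 at -0.68 and Sdc1 at 0.46. The mean of the B and plasma cell list was 0.20 lower in HOM, 7.25 against 7.45 in WT, and its direction reversed, to 0.23 higher in HOM, when only genes passing a filter at the 75th percentile were kept. Dendritic cell genes were higher in 7 of 8 (median 0.18) and in 4 of 8 without WT 1, mast cell genes split 3 to 2 (median 0.05) and 2 to 3 without WT 1, and 1 erythroid gene was tested, with a difference of 0.26.

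Interferon response genes were lower in 15 of 16 members (median -0.83). Usp18, which restrains interferon signalling, stood at 7.14, 10.19, 8.83, 10.95 and 11.31 in HOM 1 to HOM 5, against 9.99, 11.16, 12.62, 11.57 and 9.74 in WT 1 to WT 5. HOM 1 and HOM 3 lay below all WT tumors and the other HOM tumors within the WT range. Irf7 and Ifit1, an interferon regulator and an effector, differed by -1.21 and -1.23. The list means were 6.58 to 8.78 in HOM and 7.61 to 9.99 in WT, and without the tumors labelled HOM 5 and WT 5 all 16 members were lower, 6 of them with an unadjusted limma p under 0.05, against 1.97% of all genes. Genes of MHC class I presentation were lower in 12 of 12 (median -0.27), Psmb8 by 0.60, Tap2 by 0.42 and H2-K1 by 0.29 on the log2 scale. None of these passed after adjustment, and genes of a list are not independent replicates.

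Growth and metabolism lists differed little between the genotypes. Cell cycle genes were lower in 15 of 21 (median -0.07), with Top2a at -0.47, Mcm2 at -0.19 and Cenpa at 0.29, but higher in 13 of 21 without HOM 5 and WT 5 and in 12 of 21 without WT 1. Ribosome biogenesis genes were lower in 13 of 16 (median -0.04), with Ncl at -0.28, Mybbp1a at -0.21 and Ppan at 0.35, and without WT 1 they were lower in 9 of 16 (median -0.01). Glycolysis and hypoxia genes were lower in 11 of 17 (median -0.07) and in 16 of 17 without WT 1 (median -0.18). Hk2, a hexokinase, averaged 7.99 ± 0.27 in HOM and 8.52 ± 0.41 in WT (SD, n = 5 each, limma, unadjusted p = 0.025), and Pfkl and Pdk1 differed by -0.21 and -0.27.

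Oxidative phosphorylation genes were lower in 16 of 20 (median -0.07) and in 9 of 20 without WT 1, with Ndufs1 at -0.27, Sdhc at -0.17 and Atp5o at 0.26. Fatty acid synthesis genes split 8 to 5 (median 0.07), with Acly as the extreme and Acaca and Srebf1 at -0.43 and -0.34. Cholesterol synthesis genes were lower in 10 of 14 (median -0.04), with Sqle and Lss at -0.28 and -0.23 beside Dhcr7, but split 7 to 7 without WT 1 and also without HOM 5 and WT 5. Genes of branched-chain amino acid breakdown were lower in 15 of 18 (median -0.21), in 12 of 18 without WT 1 (median -0.07), with Ivd, Mmut (-0.37) and Pccb (-0.32). Unfolded protein response genes were lower in 11 of 14 (median -0.05), in 8 of 14 without WT 1, and in 7 of 14 without HOM 5 and WT 5. Asns, asparagine synthetase, averaged 9.09 ± 0.30 in HOM and 9.62 ± 0.37 in WT (limma, unadjusted p = 0.0102, adjusted p = 1.0), while the stress genes Chac1 and Trib3 differed by -0.62 and -0.39.

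**Figure D5:**
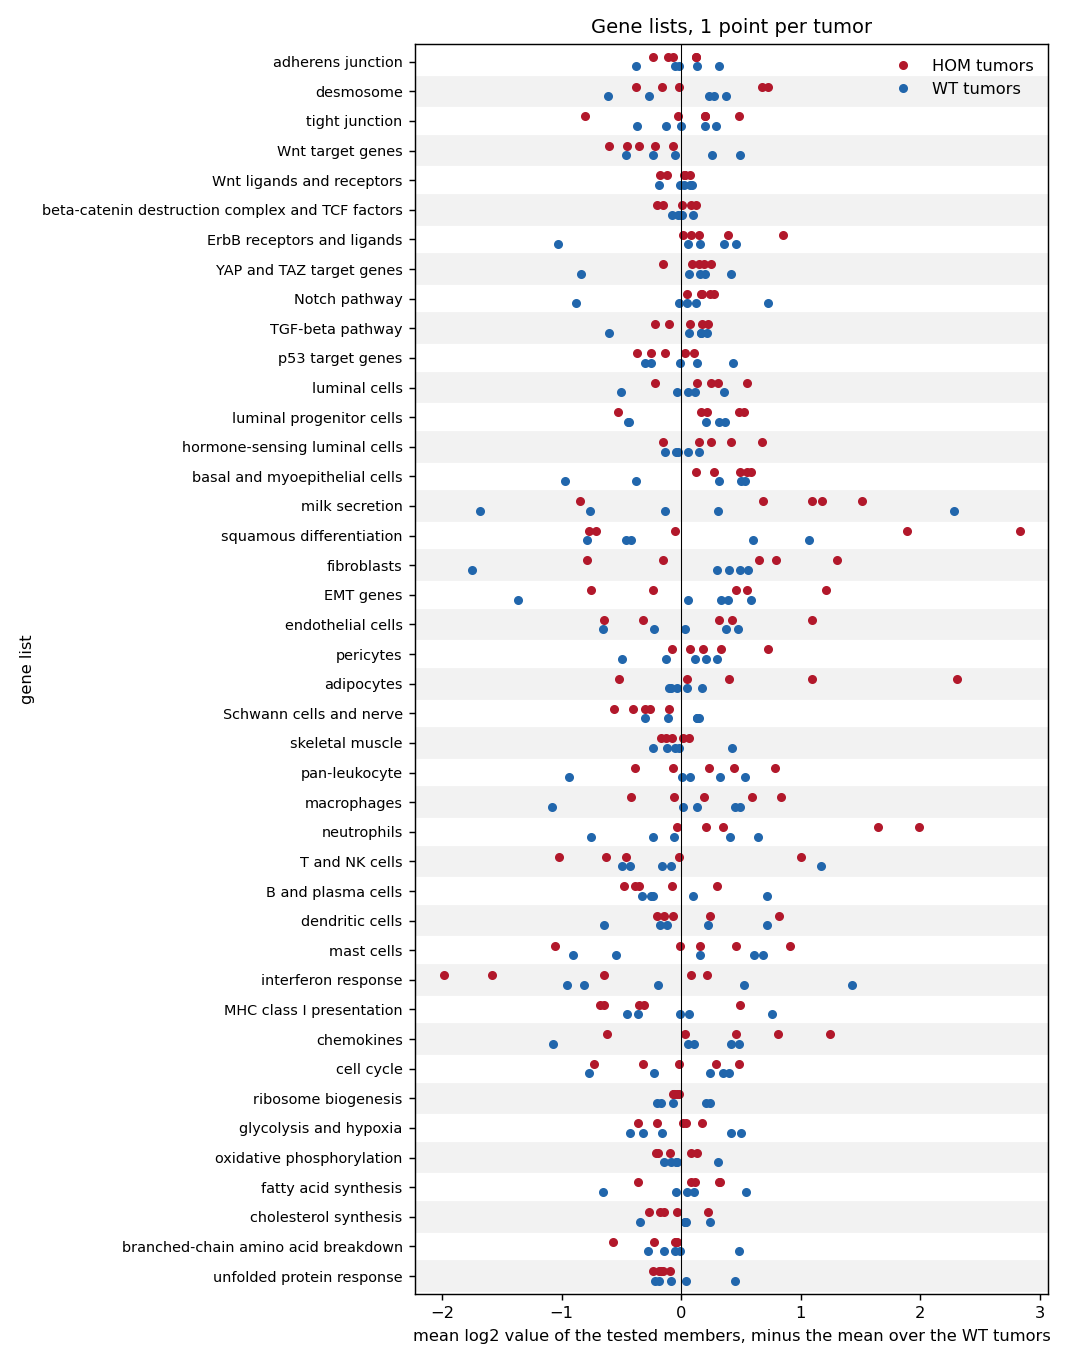
Mean log2 value of the tested members of each gene list, minus the mean over the WT tumors (horizontal axis), with 1 red point per HOM tumor and 1 blue point per WT tumor in each row. The HOM and WT points overlap in every list shown, and WT 1 is the lone low WT point in the fibroblast, EMT and ErbB rows.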

How the data were processed

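Total RNA of 15 tumors was labelled from 100 ng each, per the labels' protocols, and hybridised to 1 whole-transcript array per tumor. Affymetrix Expression Console and the Transcriptome Analysis Console were used, per the submitters' processing notes. How arrays were normalized is not given in the sources used here. A matrix of 41345 transcript clusters was deposited by the authors as log2 values, taken as log2 because they run from 1.06 to 13.9. Array medians are nearly equal. Scanner files were not used, so there are no detection calls, and the number of arrays limits the precision.

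Clusters were named through the platform annotation, and 23521 had exactly 1 symbol. The 1814 with several symbols and the 16010 unnamed ones name no gene. The cluster with the highest mean was kept for each of 22180 genes. A gene was tested when above its array's median on at least 5 of 15 arrays, leaving 14243. One limma model (version 3.58.1, R 4.3.3) held the 3 genotypes, with moderated two-sided tests on 12 residual degrees of freedom and Benjamini-Hochberg adjustment over all genes tested. The fit was tested on simulated data. Ctnnb1 and Jup were compared with exact permutation tests over all assignments. The 43 gene lists are described by counts and medians, with no set test.

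Groups follow the labelled genotype. Tumor numbers follow accession order and pair nothing. Named genes were a fixed set (Ctnnb1, Jup, Erbb2, Cdh1, Cdh19 and Axin2), the genes past the threshold with all tumors or without WT 5 and HOM 5, the 10 smallest p, the 10 largest differences per direction without overlap, the 5 largest mean differences per direction, and up to 3 members with the smallest p of a list. Unnamed gene models were counted only. The neighbours of Jup, Ctnnb1 and Erbb2 named beside these were chosen by position or after their values were seen. The comparison, its members, gene lists and settings were chosen with earlier results of these data known. Promoter sequences are from RefSeq, and the build behind the array annotation is not given in the sources used here. Alternatives were other filters, median centring, renewed quantile normalization, averaging a gene's clusters, other limma options and leaving out tumors.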

Additional observations from a re-analysis of the deposited data

Results flagged for a closer look

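In groups of 5 tumors, 39 of 402 gene or list values stood apart from the other tumors of their genotype by Dixon's test at the 95% level (critical value 0.71), a test that chance alone passes in about 1 in 20 groups. Many of these genes were chosen because HOM 5 and WT 5 set them apart or because they lie beside Jup, and lists share genes, so the count is a description and no test of any tumor. Their causes were not tested.

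In the tumor labelled HOM 5, Jup stood at 11.17 (other HOM tumors 12.79 to 12.98), Klhl11 at 7.57 (10.36 to 11.12), P3h4 at 8.93 (11.16 to 11.80), Nt5c3b at 8.56 (10.48 to 10.84), Acly at 10.42 (12.85 to 13.44), Cnp at 9.21 (10.71 to 11.31) and Eif1-ps3 at 9.80 (10.98 to 11.22). Krt17 was also low there at 11.38, as was the nucleolar gene Mybbp1a at 9.88, and Npff was high at 7.32. In the tumor labelled WT 5, Klhl11 stood at 10.52 (other WT tumors 7.73 to 8.42) and Klhl10 at 6.60 (5.33 to 5.57).

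WT 1 was low for Hbegf at 6.75 and Tnc at 8.02, and high for Glycam1 at 13.49, Slc7a4 at 7.82, Top1mt at 7.99 and Krt35 at 6.93. Its list means were low for ErbB receptors and ligands at 7.09, YAP and TAZ targets at 8.19, TGF-beta genes at 9.04, fibroblasts at 7.22, EMT genes at 7.31 and chemokines at 6.90, and high for oxidative phosphorylation at 10.12. WT 3 was high for T and NK cell genes at 7.92, Nkg7 at 9.12 and Atp2a1 at 6.68, and low for Cenpa at 8.52.

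HOM 4 was high for Lep at 8.06, Tgfbi at 11.60, Tap2 at 9.15 and Dhx58 at 11.28. HOM 3 was low for Tfpi2 at 8.16 and Dpt at 6.75, and high for Zfp385c at 7.85. HOM 2 was high for Zdhhc2 at 8.06. HOM 1 was low for Hk2 at 7.52 and high for Srebf1 at 10.02.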

How the results depend on the processing

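No gene passed the threshold under any filter, normalization or limma option tried, at an adjusted p under 0.10, or without any 1 tumor, and 4 passed without WT 5 and HOM 5. Genes without overlap numbered 40 of 14243, with 90 of 22180 under no filter and 19 of 8320 under the 75th percentile filter. They numbered 433 of 14243 without WT 5 and HOM 5, and 59 to 222 of 14243 with 1 tumor left out (222 without WT 5). Smaller groups separate more often by label order alone, so counts with tumors left out cannot be set against the 40. Median centring split the genes without overlap into 12 above and 40 below, against 16 above and 24 below. Ctnnb1 differed by -0.51 to -0.28 with 1 tumor left out and by -0.65 without WT 5 and HOM 5. Jup differed by 0.63 to 1.10 and by 1.39. Jup neighbours without overlap numbered 9 in place of 0 without the same 2 tumors, a setting chosen after seeing the data, as was leaving WT 1 out of the list counts. Without these 2 tumors Klhl11 (2.61), Klhl10 (0.94), Nt5c3b (1.87) and Eif1-ps3 (1.34) passed. Signs reversed for Cdh1 (0.059 without the 2 tumors), Cgn (0.002 under array weights, 0.082 without the 2 tumors) and Cldn1 (-0.061 under array weights). With 1 tumor left out, ranges crossed 0 for Cdh1 (-0.14 to 0.035), Axin2 (-0.82 to 0.25), Cgn (-0.38 to 0.073), Cldn1 (-0.084 to 0.45), Zfp385c (-0.016 to 0.52) and Dhx58 (-0.75 to 0.0038). Many list means crossed 0 too, among them T and NK cells (-0.53 to 0.064), macrophages (-0.046 to 0.39), fibroblasts (-0.079 to 0.65) and adherens junction (-0.13 to 0.040). Under the 75th percentile filter the list means differed by -0.07 for Schwann cells and nerve and by 0.23, reversed from -0.20, for B and plasma cells. No paired analysis was possible because the labels give the tumors no replicate numbers. The number of tumors and the unknown background correction limit dim genes such as Klhl10, Lep, Inmt and Rnase1, and Cdh19 in HOM 4 and HOM 5.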
